A study of Mus musculus with 6 samples.

Results

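The genes described here encode the anaphase-promoting complex (APC/C), the spindle assembly checkpoint that restrains it, and the kinases, phosphatases and cohesin guardians that act with them at chromosome segregation. They were chosen by symbol, as a list of 38 genes out of the 55487 gene identifiers of the count table. All 38 were found in the annotation (GENCODE M21), and all passed the filter on low counts, which kept 19826 genes. The counts come from polyadenylated RNA of whole testes of mice at postnatal day 19, with 3 libraries labelled control and 3 labelled dsfb. The dsfb animals carry, per the title of the series, Hormad1&2SFB/SFB, that is SFB alleles of the meiotic axis genes Hormad1 and Hormad2 in the homozygous state. The labels give no strain, no further description of the control genotype and no other allele or treatment. Per the labels each testis sample is from its own mouse, which makes the 3 libraries of a group 3 animals.

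The APC/C is a ubiquitin ligase that marks securin and B-type cyclins for destruction and so starts anaphase. The spindle checkpoint, built from MAD, BUB and TTK proteins at kinetochores that lack tension or attachment, holds back its coactivator CDC20 until all chromosomes are attached. Securin then releases separase, which cuts cohesin, while shugoshins protect cohesin at centromeres during the first meiotic division. In the testis these genes serve both the mitoses of spermatogonia and the 2 meiotic divisions of spermatocytes, and some, such as Aurkc, are used mainly in germ cells.

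Most of the changes among these genes were decreases. In dsfb testes 22 of the 38 genes fell and 7 rose, and 9 did not pass the test (edgeR quasi-likelihood test, Benjamini-Hochberg adjusted p under 0.05 over all tested genes). Over all tested genes 66.9% were called in 1 direction or the other. The shares of the 38 were 57.9% lower and 18.4% higher, where 36.2% of all tested genes were called lower and 30.7% higher. The median log2 fold change of the 38 genes was -0.54, against 0.02 over all 19826 genes. In 22 genes every dsfb library lay below every control library, as in 38.5% of all tested genes, in 9 every one lay above (36.2% of all), and in 7 the groups overlapped. By at least 2-fold, 13 of the 38 genes fell (34.2%, against 26.8% of all genes) and 1, Cdc25b, rose (2.63%, against 13.2%). Libraries scaled only by their size gave 14 falls and 14 rises, so the balance of directions hung on the scaling, and upper-quartile scaling gave 18 falls and 11 rises. The median log2 change of all genes was then 0.396 and 0.278 higher than with TMM. Relative to the all-gene median the 38 genes lay at -0.56 under TMM, RLE, upper-quartile, autosomal TMM and library-size scaling. A change of scaling moves all genes nearly alike, so that agreement is no check of the difference. Over 38003 genes the value was -0.33 with no filter beyond 1 read and -0.32 by DESeq2. Without dsfb replicate 2 the number that rose was 4, because Anapc1, Cdc16 and Sgo1 no longer passed.

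Depth was 15.3 to 27.7 M counted reads per library and was lower in dsfb (15.3 to 17.3 M) than in control (24.0 to 27.7 M). Hormad1 was at 446, 486 and 209 CPM (the gene's counts scaled to a fixed library total after TMM, the unit used below) in the controls, against 217, 246 and 243 CPM in dsfb (edgeR adjusted p = 0.0597), and Hormad2 fell from 52.7 ± 8.79 to 27.1 ± 1.79 CPM (SD, n = 3, edgeR adjusted p = 0.000757). Counts of whole genes do not show the SFB alleles and are no check of the labels. Markers of other cell populations moved with the genotype. Mid to late pachytene spermatocytes were represented by 9 markers, all of which fell, and their summed level was 7664 to 10758 CPM in control and 227 to 269.7 CPM in dsfb. All 10 tested spermatid markers fell, with sums of 53.9, 56.5 and 549.9 CPM in control and 8.09 to 9.85 CPM in dsfb, where Spaca3 and Txndc8 had no counts. The high value is that of control replicate 3, which thus stood apart from the other controls. All 11 Sertoli cell markers rose, from sums of 2578 to 3458 CPM to 6169 to 6370.5 CPM. Of 9 genes of proliferating cells 6 rose and Pcna fell, with sums of 1094 to 1503 CPM in control and 1495 to 1644 CPM in dsfb. In the other lists 5 of 8 tested markers of undifferentiated spermatogonia rose and 1 fell, 5 of 6 of differentiating spermatogonia rose and 1 fell, and 2 of 6 of early meiotic prophase rose and 1 fell. The sums of these lists were 154 to 184, 649.6 to 851 and 1056 to 2018 CPM in control. In dsfb they were 160.2 to 213, 371 to 412 and 1196 to 1334 CPM. The sum of differentiating spermatogonia thus fell although most of its markers rose, which rested on Dmrtb1 (mean 554 to 45.3 CPM). Among markers of Leydig, peritubular myoid, macrophage and endothelial cells 3 of 6, 3 of 5, 4 of 6 and 1 of 5 rose, as did 6 of 8 immediate early genes. Beside all these counts, 36.2% of all tested genes were called lower and 30.7% higher. The immediate early genes were listed with tissue handling in mind, and whether handling differed between the groups was not tested. In whole tissue fewer cells of a type and less RNA per cell cannot be told apart, and the part of these differences in the results below was not tested.

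**Figure D1:**
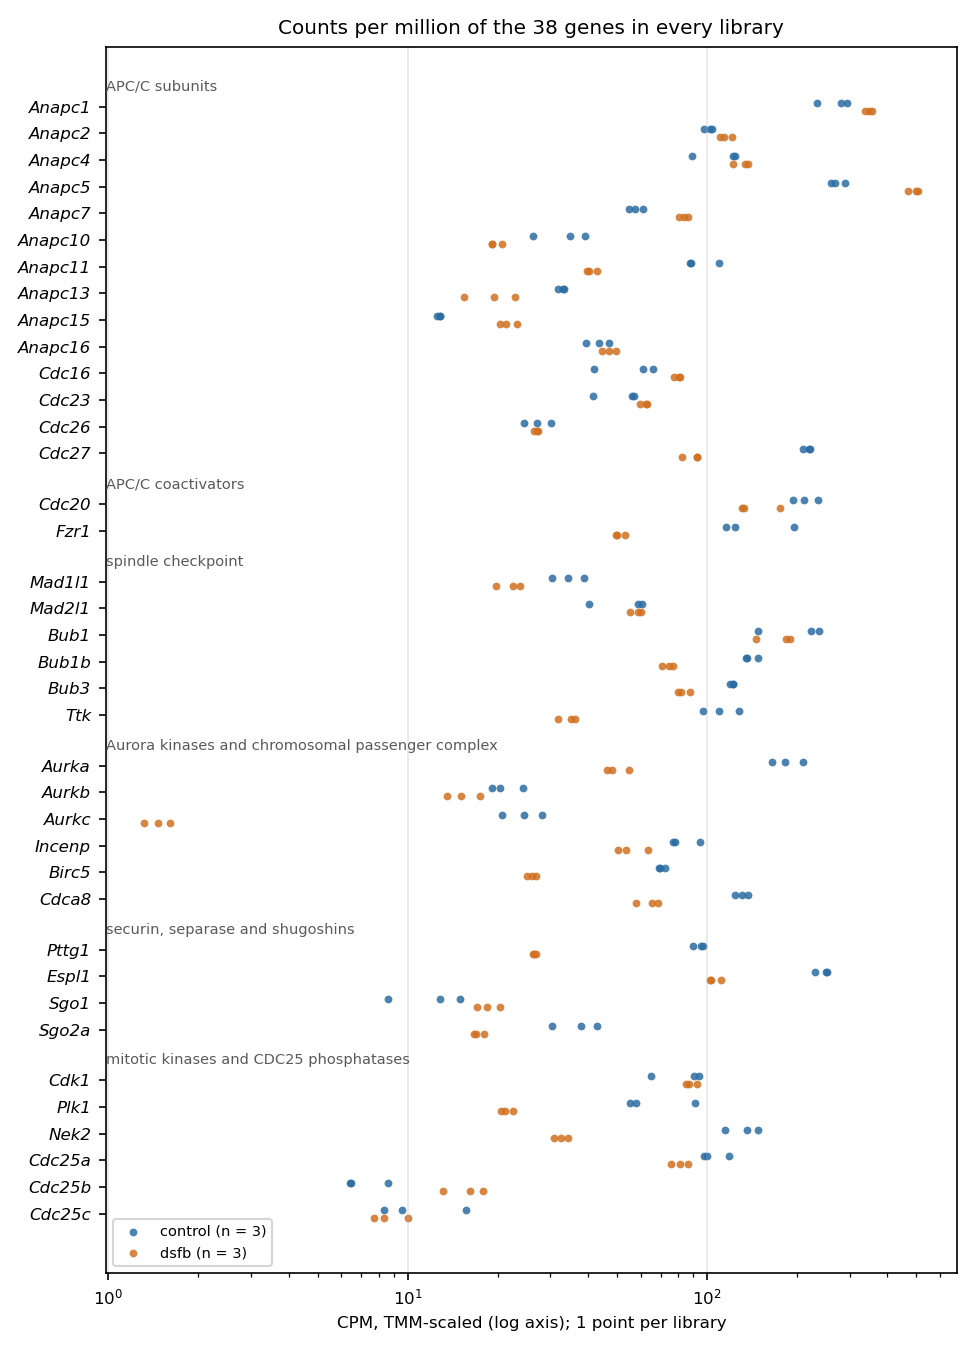
CPM (horizontal log axis, TMM-scaled) of each of the 38 genes in every library, with control in blue and dsfb in orange and 1 point per library, grouped by role. The points of Aurkc, Nek2, Aurka, Ttk and Pttg1 separate most widely, while those of Cdk1, Mad2l1, Cdc26 and Cdc25c overlap.

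Of the 14 core subunits of the APC/C 4 fell, 5 rose and 5 did not pass, with a median log2 fold change of 0.21. The shares called, 28.6% lower and 35.7% higher, lie near those of all tested genes (36.2% and 30.7%). Their summed level was 1292 to 1438 CPM in control and 1531 to 1602 CPM in dsfb, and single subunits went in opposite directions. The higher sum rested on Anapc5, whose mean went from 272 to 493 CPM while the mean sum went from 1381 to 1576 CPM. It is therefore no rise of the complex as a whole. Under library-size-only scaling 2 fell and 10 rose, and under upper-quartile scaling 4 and 9. With no filter on low counts 4 fell and 3 rose, and without dsfb replicate 2 the numbers were again 4 and 3.

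In the catalytic module, Anapc11 (ENSMUSG00000025135, chromosome 11, 120598421 to 120608198, plus strand, mm10) encodes the RING subunit that binds the ubiquitin-loaded E2 enzyme. It was at 88.3, 87.8 and 109.6 CPM in control and 43.0, 39.7 and 40.2 CPM in dsfb. Every dsfb library lay below every control library, and Anapc11 fell 2.32-fold (log2 -1.22, SE 0.11, edgeR adjusted p = 6.49e-05). Its partner Anapc2, the cullin scaffold, was at 102, 97.5 and 104 CPM in control and 121, 110.5 and 114 CPM in dsfb. These values did not overlap but missed the threshold (log2 0.18, SE 0.08, edgeR adjusted p = 0.0667), and Anapc2 passed as higher when libraries were scaled by upper quartile, by size alone or by autosomal TMM. Anapc10, the substrate-binding subunit that helps the coactivators recognise degradation signals, fell from 34.8, 39.2 and 26.3 CPM to 20.6, 19.2 and 19.1 CPM (log2 -0.77, SE 0.16, edgeR adjusted p = 0.00426), or log2 -0.38 with library size as the only scaling (edgeR adjusted p = 0.0818).

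In the scaffold platform the changes were upward or did not pass. Anapc5 (chromosome 5, 122787459 to 122821339, minus strand) was at 289.5, 267 and 259 CPM in control and at 508, 499 and 471 CPM in dsfb. The dsfb libraries were all far above the controls, a 1.81-fold rise (log2 0.86, SE 0.09, edgeR adjusted p = 0.000101) that was called under all 16 alternatives. Anapc15, which promotes the turnover of the checkpoint complex on the APC/C, rose 1.70-fold, from 12.5, 12.8 and 12.8 CPM to 21.3, 20.3 and 23.1 CPM (edgeR adjusted p = 0.00167). Of its exonic bases 38.4% are shared with Tomt on the opposite strand, a gene at 0.402 to 1.84 CPM in these libraries. The annotation also holds a gene named as its copy, Anapc15-ps, and whether reads were shared with that copy was not tested. Anapc1, the largest scaffold subunit, rose 1.29-fold, from 233 to 294 CPM across the controls to 338 to 356 CPM in dsfb (edgeR adjusted p = 0.0159, or 0.0595 without dsfb replicate 2). Anapc4 was at 122, 124 and 89.4 CPM in control and 134, 137 and 122 CPM in dsfb, values that overlap (edgeR adjusted p = 0.162). It passed as higher with upper-quartile (edgeR adjusted p = 0.0117) and library-size-only scaling (0.0058).

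The arm of tetratricopeptide-repeat subunits, which the coactivators dock on, held the largest fall of the complex. Cdc27 (ENSMUSG00000020687, chromosome 11, 104502745 to 104550620, minus strand), the subunit that receives the tail of the coactivators, was at 219.7, 221 and 209 CPM in control. It was at 92.6, 92.6 and 82.2 CPM in dsfb. The groups were far apart, and Cdc27 fell 2.43-fold (log2 -1.28, SE 0.08, edgeR adjusted p = 1.12e-05). The other repeat subunits did not follow it. Anapc7 rose 1.45-fold, from 55.0 to 61.1 CPM across the controls to 80.6 to 86.3 CPM in dsfb (edgeR adjusted p = 0.000935). Cdc16 rose 1.42-fold from 66.1, 61.2 and 42.0 CPM to 80.9, 81.4 and 77.4 CPM (edgeR adjusted p = 0.0265), a call lost when any 1 dsfb library was left out (adjusted p = 0.0604 to 0.0784). Cdc23 was at 56.1, 56.9 and 41.6 CPM in control and 62.8, 62.7 and 59.9 CPM in dsfb (edgeR adjusted p = 0.113). It passed as higher with upper-quartile (edgeR adjusted p = 0.00825) and library-size-only scaling (0.00433). Cdc23 shares 13.4% of its exonic bases with Kif20a on the opposite strand, which fell from 144 to 149 CPM in control to 67.3 to 76.0 CPM in dsfb, so its value is uncertain.

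The small subunits that brace this arm differed too. Anapc13 fell 1.71-fold, from 31.8, 33.0 and 33.4 CPM to 15.4, 22.8 and 19.4 CPM (log2 -0.77, SE 0.16, edgeR adjusted p = 0.00372), and missed the threshold with library size as the only scaling (adjusted p = 0.0647). It shares 10.1% of its exonic bases with Cep63 on the opposite strand, which fell from 587, 686 and 710.4 CPM to 60.5, 61.4 and 57.0 CPM. Whether the counting used strand is not known here, so the fall of Anapc13 cannot be told apart from reads of Cep63. Anapc16 was at 39.5 to 47.1 CPM in control and 44.7 to 49.6 CPM in dsfb (edgeR adjusted p = 0.345). Cdc26, which stabilises CDC16, was at 24.4 to 30.1 CPM and 26.4 to 27.3 CPM (log2 -0.02, SE 0.12, edgeR adjusted p = 0.918), with the sign turning when libraries were scaled by upper quartile, by size alone or by autosomal TMM. The ranges of Anapc16 and Cdc26 overlapped between the groups. Both passed as higher with library size as the only scaling (edgeR adjusted p = 0.00217 and 0.0312), and Anapc16 also with upper-quartile scaling (0.00981).

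The coactivator genes, which choose the substrates of the APC/C, fell, Fzr1 by more than Cdc20. Fzr1 (ENSMUSG00000020235, chromosome 10, 81366222 to 81378516, minus strand) encodes CDH1, the coactivator of late mitosis, G1 and meiotic prophase. It was at 116, 124 and 196 CPM in control and 53.1, 49.7 and 50.0 CPM in dsfb. Control replicate 3 was the highest library, and the lowest control still stood above every dsfb library (2.85-fold, log2 -1.51, SE 0.20, edgeR adjusted p = 0.000368). Cdc20, the coactivator of anaphase onset, was at 194, 211 and 234 CPM in control and 133, 131 and 175 CPM in dsfb, a 1.46-fold fall (log2 -0.54, SE 0.14, edgeR adjusted p = 0.00865). That call was lost with upper-quartile (log2 -0.26, adjusted p = 0.116) and library-size-only scaling (log2 -0.14, adjusted p = 0.359). Within each library, where scaling plays no part, the ratio of Cdc20 to Fzr1 per kb of exon was 2.87 to 4.09 in control and 6.03 to 8.40 in dsfb.

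In the spindle checkpoint 4 of 6 genes fell, 0 rose by edgeR and Mad2l1 and Bub1 did not pass (median log2 -0.59). The share lower was 66.7%, against 36.2% of all tested genes. With library size as the only scaling 2 fell and 1, Mad2l1, rose. Ttk (ENSMUSG00000038379, plus strand of chromosome 9, 83834689 to 83872389) encodes MPS1, the kinase that starts checkpoint signalling. It was at 109.6, 128 and 97.3 CPM in control and 31.7, 36.1 and 35.0 CPM in dsfb. The lowest control library was well above the highest dsfb library, and Ttk fell 3.26-fold (log2 -1.70, SE 0.12, edgeR adjusted p = 1.77e-05). Bub1b, which encodes BUBR1, the part of the mitotic checkpoint complex that blocks the APC/C, fell 1.89-fold from 136, 148 and 135 CPM to 77.1, 70.6 and 74.4 CPM (edgeR adjusted p = 5.52e-05). Bub3, the adaptor that brings the BUB proteins to kinetochores, fell 1.45-fold from 122, 119 and 122 CPM to 82.1, 87.9 and 80.1 CPM (edgeR adjusted p = 0.000594). Mad1l1, which holds MAD2 at the kinetochore, fell 1.57-fold from 30.3, 34.4 and 38.7 CPM to 23.7, 22.5 and 19.8 CPM (edgeR adjusted p = 0.00424). With library size as the only scaling Bub3 and Mad1l1 missed the threshold (adjusted p = 0.147 and 0.111).

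Mad2l1 and Bub1 showed how much control replicate 3 weighed. Mad2l1, the checkpoint effector that binds CDC20, was at 58.7, 60.5 and 40.5 CPM in control and 55.2, 60.0 and 58.6 CPM in dsfb, so dsfb lay within the control range (log2 0.12, SE 0.16, edgeR adjusted p = 0.509). Without control replicate 3 its log2 change was -0.07. Bub1, the kinase that marks centromeres for shugoshin, was at 223, 237 and 148 CPM in control and 190, 184 and 146 CPM in dsfb. The groups overlapped through control replicate 3 (log2 -0.23, SE 0.19, edgeR adjusted p = 0.313). Without that library Bub1 passed as lower (log2 -0.44, edgeR adjusted p = 0.000297), and with upper-quartile and library-size-only scaling of all libraries its sign turned (log2 0.05 and 0.16).

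All 6 genes of the Aurora kinases and the chromosomal passenger complex fell, where 36.2% of all tested genes were called lower. Their median log2 fold change was -1.23. The complex, made of an Aurora kinase with INCENP, survivin and borealin, corrects wrong attachments of chromosomes to the spindle. Their summed level was 476, 511 and 559 CPM in control and 207, 198 and 232 CPM in dsfb. With upper-quartile or library-size-only scaling 4 of the 6 fell, Aurkb and Incenp missing the threshold.

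Aurkc had the largest change of the 38 genes. Aurkc (ENSMUSG00000070837, chromosome 7, 6995300 to 7003091, plus strand) encodes the Aurora kinase that takes part in the passenger complex of meiotic cells. It was at 20.7, 24.4 and 28 CPM in control and at 1.32, 1.61 and 1.46 CPM in dsfb, where it rested on 81 counts over the 3 libraries. The groups lay far apart (log2 -4.06, SE 0.21, edgeR adjusted p = 2.83e-06), and the log2 change was between -4.21 and -3.66 over the 16 alternatives. Aurka, the Aurora kinase of centrosomes and spindle poles (ENSMUSG00000027496, chromosome 2, 172356190 to 172370535, minus strand), was at 165, 182 and 209 CPM in control and 46.5, 48.3 and 54.8 CPM in dsfb, a 3.72-fold fall (log2 -1.89, SE 0.12, edgeR adjusted p = 7.81e-06). Aurkb, the kinase of the mitotic passenger complex, was at 19.2, 20.4 and 24.3 CPM in control and 15.1, 13.5 and 17.4 CPM in dsfb. Its groups lay close together (log2 -0.47, SE 0.16, edgeR adjusted p = 0.035), and the call was lost without control replicate 2 (adjusted p = 0.061), dsfb replicate 1 (0.107) or dsfb replicate 2 (0.132).

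Because the Aurora genes fell by different amounts, their make-up within a library changed. Of the summed Aurora level per kb of exon, Aurkc took 15.9 to 16.9% in control and 3.36 to 4.27% in dsfb. Aurkb took 7.27 to 7.62% in control and 18.5 to 21% in dsfb. Aurka kept the major part in every library, 75.6 to 76.5% in control and 75.4 to 77.2% in dsfb. These shares do not depend on the scaling between libraries.

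**Figure D2:**
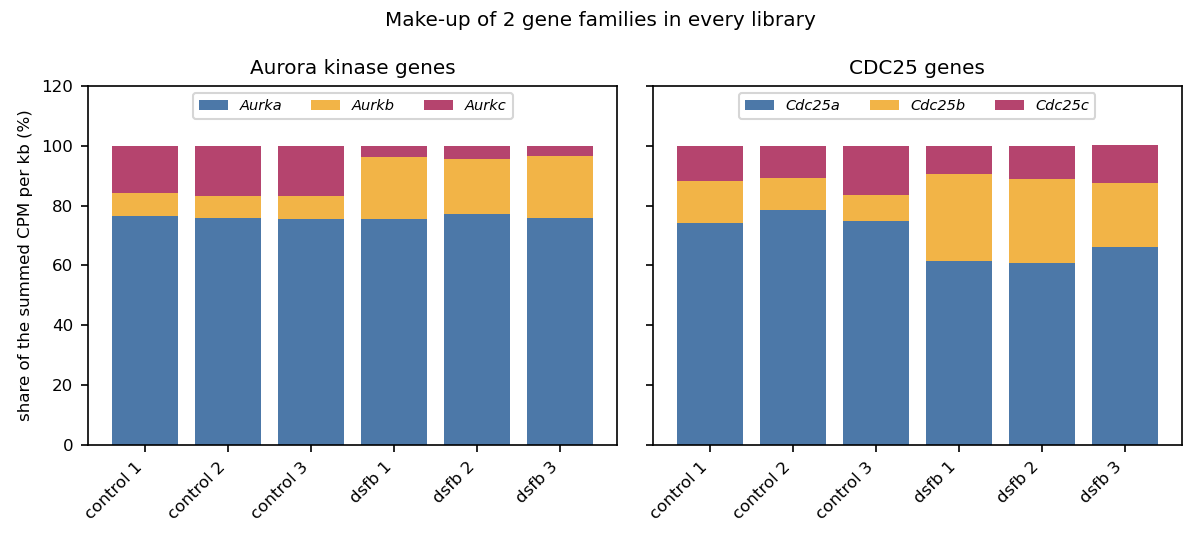
Share of each gene in the summed CPM per kb of exon of its family (vertical axis, percent), with 1 bar per library, for the Aurora kinase genes (left) and the CDC25 genes (right). Aurkc takes 15.9 to 16.9% of the Aurora level in control and 3.36 to 4.27% in dsfb, while Cdc25b takes 8.88 to 14.1% of the CDC25 level in control and 21.5 to 29.0% in dsfb.

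Among the other passenger genes Birc5, which encodes survivin, fell 2.72-fold from 69.9, 69.1 and 72.5 CPM to 25, 26.9 and 26.0 CPM (log2 -1.44, SE 0.09, edgeR adjusted p = 7.65e-06). The spread within each group was a small part of that difference. Cdca8, which encodes borealin, fell 2.04-fold from 124, 137 and 131 CPM to 65.7, 57.7 and 68.5 CPM (edgeR adjusted p = 6.3e-05). Incenp, the scaffold of the complex, fell 1.49-fold from 77.0, 78.3 and 95.1 CPM to 53.7, 50.6 and 63.6 CPM (edgeR adjusted p = 0.00482). Of the 5 passenger and Aurora genes other than Aurkc, Incenp and Aurkb changed least.

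Promoters are shown for the most changed genes of the Aurora, securin-separase and coactivator groups. Cdk1, which did not pass the test and was picked after its values were seen, is added for contrast. Pttg1 was among the most changed but is not printed. At most 55 bases in a row, of the 250 before its start, lay outside annotated exons. RefSeq (GRCm38.p6) gave promoters for 34 of the 38 genes, 40 in all, and the 250 bases before each start were searched on both strands for 3 motifs. These were the CHR element of cell-cycle genes (TTTGAA as well as TTCGAA), the CCAAT box and the MYB site. The MYB site was searched as CAACTG and with its variants, namely TAACTG together with CAACGG and lastly TAACGG. No motif is contained in another, and matches in the printed stretches share no bases. The sequences below are 5′ to 3′ and leave out bases annotated as exon in GENCODE M21, and capitals mark motif matches on either strand. Aurkc lies at chr7:6995135-6995299, plus strand, Aurka at chr2:172370571-172370680, minus strand, Fzr1 at chr10:81378517-81378620, minus strand, and Cdk1 at chr10:69352939-69353162, minus strand.
Aurkc: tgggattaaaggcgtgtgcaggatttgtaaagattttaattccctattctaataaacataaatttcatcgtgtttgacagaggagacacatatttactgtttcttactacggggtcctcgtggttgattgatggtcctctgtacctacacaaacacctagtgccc
Aurka: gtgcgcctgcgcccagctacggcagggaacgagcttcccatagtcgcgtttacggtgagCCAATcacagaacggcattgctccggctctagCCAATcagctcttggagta
Fzr1: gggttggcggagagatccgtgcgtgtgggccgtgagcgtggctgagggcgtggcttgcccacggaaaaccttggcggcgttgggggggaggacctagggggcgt
Cdk1: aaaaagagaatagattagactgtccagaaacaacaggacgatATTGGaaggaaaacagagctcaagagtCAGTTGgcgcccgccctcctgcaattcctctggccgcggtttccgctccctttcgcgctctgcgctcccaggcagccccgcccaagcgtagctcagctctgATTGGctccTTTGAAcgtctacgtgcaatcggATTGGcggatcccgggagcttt

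The printed stretch of Aurka holds 2 CCAAT boxes, from -51 to -47 and from -19 to -15 relative to the RefSeq start, and those of Aurkc and Fzr1 hold none of the searched motifs. Over its whole window of 250 bases Fzr1 has 1 CCAAT box, outside the printed stretch, and Aurkc and Pttg1 have none of the 3 motifs. The printed stretch of Cdk1 holds 3 CCAAT boxes, a CHR element from -71 to -66 and a MYB site from -181 to -176. In the full 250 bases Aurka also has 1 MYB site, and Cdk1 has 2 CHR elements in all. Over the whole windows a CCAAT box stood in 16 of 25 promoters of genes that fell (64.0%), in 2 of 8 of genes that rose (25%) and in 2 of 7 of genes that did not pass (28.6%), against 33.8% of all 32851 promoters. The CHR letters were in 5 of 25 promoters of genes that fell (20%), against 17.1% of all, and the MYB letters in 10 of 25 (40.0%), against 23.7%. These shares are descriptions of letters in a window, and some genes have more than 1 promoter in them.

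In the group of securin, separase and the shugoshins 3 of 4 genes fell and 1 rose. Among all tested genes 36.2% were called lower and 30.7% higher. Pttg1 (ENSMUSG00000020415, chromosome 11, 43420250 to 43426251, minus strand) encodes securin, the inhibitor that the APC/C destroys at anaphase. It was at 89.7, 95.7 and 96.7 CPM in control and 26.5, 26.3 and 26.8 CPM in dsfb. Spread within the groups was very small, and Pttg1 had the smallest p of the 38 genes (log2 -1.82, SE 0.08, edgeR adjusted p = 1.7e-06). Espl1 (plus strand of chromosome 15, 102296266 to 102324357), which encodes separase, was at 229, 251 and 249 CPM in control and 102, 103 and 111 CPM in dsfb, a 2.31-fold fall (log2 -1.21, SE 0.08, edgeR adjusted p = 1.37e-05). Both genes thus fell, the inhibitor by more than its target: per kb of exon the ratio of Pttg1 to Espl1 was 1.67 to 1.71 in control and 1.06 to 1.13 in dsfb.

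The shugoshin genes went in opposite directions. Sgo2a, the main protector of centromeric cohesin in mouse meiosis, was at 38, 42.8 and 30.4 CPM in control and 16.9, 18.0 and 16.7 CPM in dsfb. All dsfb libraries were lower, a 2.16-fold fall (log2 -1.11, SE 0.15, edgeR adjusted p = 0.000475). Of its exonic bases 35.0% are shared with Kctd18 on the opposite strand, which was at 47.8 to 50.3 CPM in control and 42.1 to 48.3 CPM in dsfb and did not pass (edgeR adjusted p = 0.505). Sgo1, the shugoshin of mitotic cells, was at 14.9, 12.8 and 8.58 CPM in control and 20.4, 17.0 and 18.4 CPM in dsfb. The groups did not overlap (log2 0.62, SE 0.22, edgeR adjusted p = 0.0392), but the call was lost without control replicate 2 (adjusted p = 0.0761) or dsfb replicate 1, 2 or 3 (0.126, 0.0704 and 0.0882), with RLE scaling (0.0567) and with no filter on low counts (0.0891).

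Of the 6 kinases and phosphatases that drive entry into division 3 fell, 1 rose and 2 did not pass (median log2 -0.37), or 2 fell and 2 rose with library-size-only scaling. With TMM that is 50.0% lower and 16.7% higher, against 36.2% and 30.7% of all tested genes. Cdk1 (chromosome 10, 69335146 to 69352938, minus strand), the kinase that the B-type cyclins activate, was at 90.7, 93.7 and 65.2 CPM in control and 85, 92.7 and 87.4 CPM in dsfb. The dsfb libraries lay within the control range (log2 0.09, SE 0.14, edgeR adjusted p = 0.607), and the log2 change was -0.09 without control replicate 3. With library size as the only scaling Cdk1 passed as higher (log2 0.48, edgeR adjusted p = 0.0241). Nek2 (ENSMUSG00000026622, chromosome 1, 191821444 to 191833050, plus strand), a kinase of centrosome separation, was at 115, 136 and 148 CPM in control and 30.8, 32.6 and 34.4 CPM in dsfb. It fell 4.08-fold (log2 -2.03, SE 0.12, edgeR adjusted p = 5.38e-06), the largest fall of the 38 after Aurkc. Plk1, the Polo kinase that acts from the end of meiotic prophase to cytokinesis, fell 3.19-fold from 55.2, 57.9 and 91.5 CPM to 21.1, 20.5 and 22.5 CPM (log2 -1.67, SE 0.20, edgeR adjusted p = 0.000245). As for Fzr1, control replicate 3 was the highest library and the other controls were still above all dsfb libraries.

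The CDC25 phosphatase genes, whose products remove the inhibitory phosphates from CDK1, split as well. Cdc25b (plus strand of chromosome 2, 131186949 to 131198497) was at 8.61, 6.40 and 6.49 CPM in control and 17.9, 16.2 and 13.1 CPM in dsfb. It was the only one of the 38 genes to rise by at least 2-fold (log2 1.13, SE 0.21, edgeR adjusted p = 0.00204), and it was called under all 16 alternatives. It shares 2.5% of its exonic bases with Spef1 on the opposite strand, which fell. Cdc25a was at 97.4, 99.7 and 118 CPM in control and 81.4, 75.7 and 86.4 CPM in dsfb, a 1.29-fold fall (log2 -0.37, SE 0.10, edgeR adjusted p = 0.0144) that was lost with upper-quartile scaling, turned to log2 0.03 with library size as the only scaling, and missed the threshold without dsfb replicate 1 or 2 (adjusted p = 0.0504 and 0.0633). Cdc25c was at 9.59, 8.34 and 15.7 CPM in control and 7.72, 8.32 and 9.99 CPM in dsfb, which overlap (log2 -0.37, SE 0.27, edgeR adjusted p = 0.259), and its sign turned with library size as the only scaling. Within a library Cdc25b took 8.88 to 14.1% of the CDC25 level per kb of exon in control and 21.5 to 29.0% in dsfb, with Cdc25a at 74.0 to 78.5% and 60.9 to 66.1%.

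**Figure D3:**
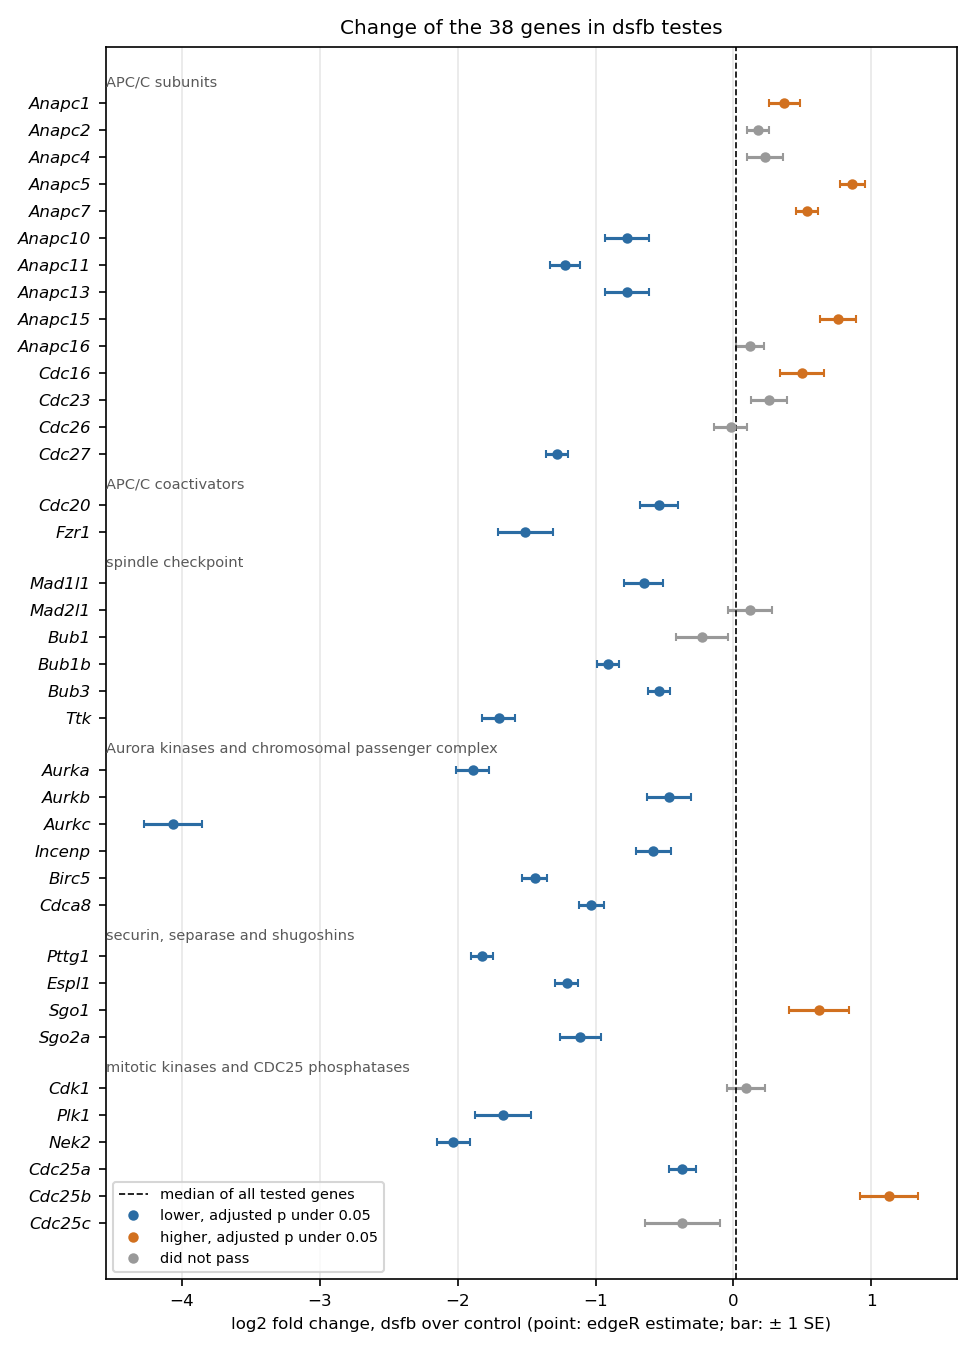
log2 fold change of dsfb over control (horizontal axis, edgeR, bars ± 1 SE, n = 3 per group) for the 38 genes by role, with genes called lower in blue, higher in orange and not passing in grey. All 6 Aurora and passenger genes lie to the left of the dashed line at the median of all tested genes (0.02), whereas the APC/C subunits lie on both sides of it.

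Levels between genes were compared per kb of the union of annotated exons. In control the highest level was that of Cdc20, at 114 ± 10.8 CPM per kb (SD, n = 3), followed by Aurka at 73.3 ± 8.63. Pttg1 (47.0 ± 1.90), Bub1 (46.6 ± 11) and Anapc5 (44.5 ± 2.59) came next and did not differ beyond their spread, although per kb of the longest transcript Anapc5 (80.5 ± 4.69) stood above Bub1 (59.3 ± 14) and Pttg1 (56.2 ± 2.27). The lowest were Cdc25b (1.92 ± 0.335), Cdc25c (2.28 ± 0.802) and Anapc15 (2.46 ± 0.0364). Cdc25c lay within its spread of both others, while Cdc25b and Anapc15 differed by more than either SD. Per kb of the longest transcript the lowest were Cdc25b (2.32 ± 0.405), Sgo1 (3.33 ± 0.891) and Anapc15 (4.09 ± 0.0606). Cdc25c followed at 4.26 ± 1.5, within its spread of Sgo1 and Anapc15. In dsfb the order was another: Anapc5 (80.6 ± 3.17 CPM per kb) and Cdc20 (78.3 ± 13.3) were highest and within their spread per kb of union exons, Bub1 (39.8 ± 5.41) and Anapc2 (33.3 ± 1.49) followed, and Aurka stood at 19.7 ± 1.73. Per kb of the longest transcript Anapc5 (146 ± 5.73) lay well above Cdc20 (81.5 ± 13.8) in dsfb, so their order rests on the length used. Aurkc, at 16 ± 2.39 CPM per kb in control, was the lowest of the 38 in dsfb, at 0.96 ± 0.0939.

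**Figure D4:**
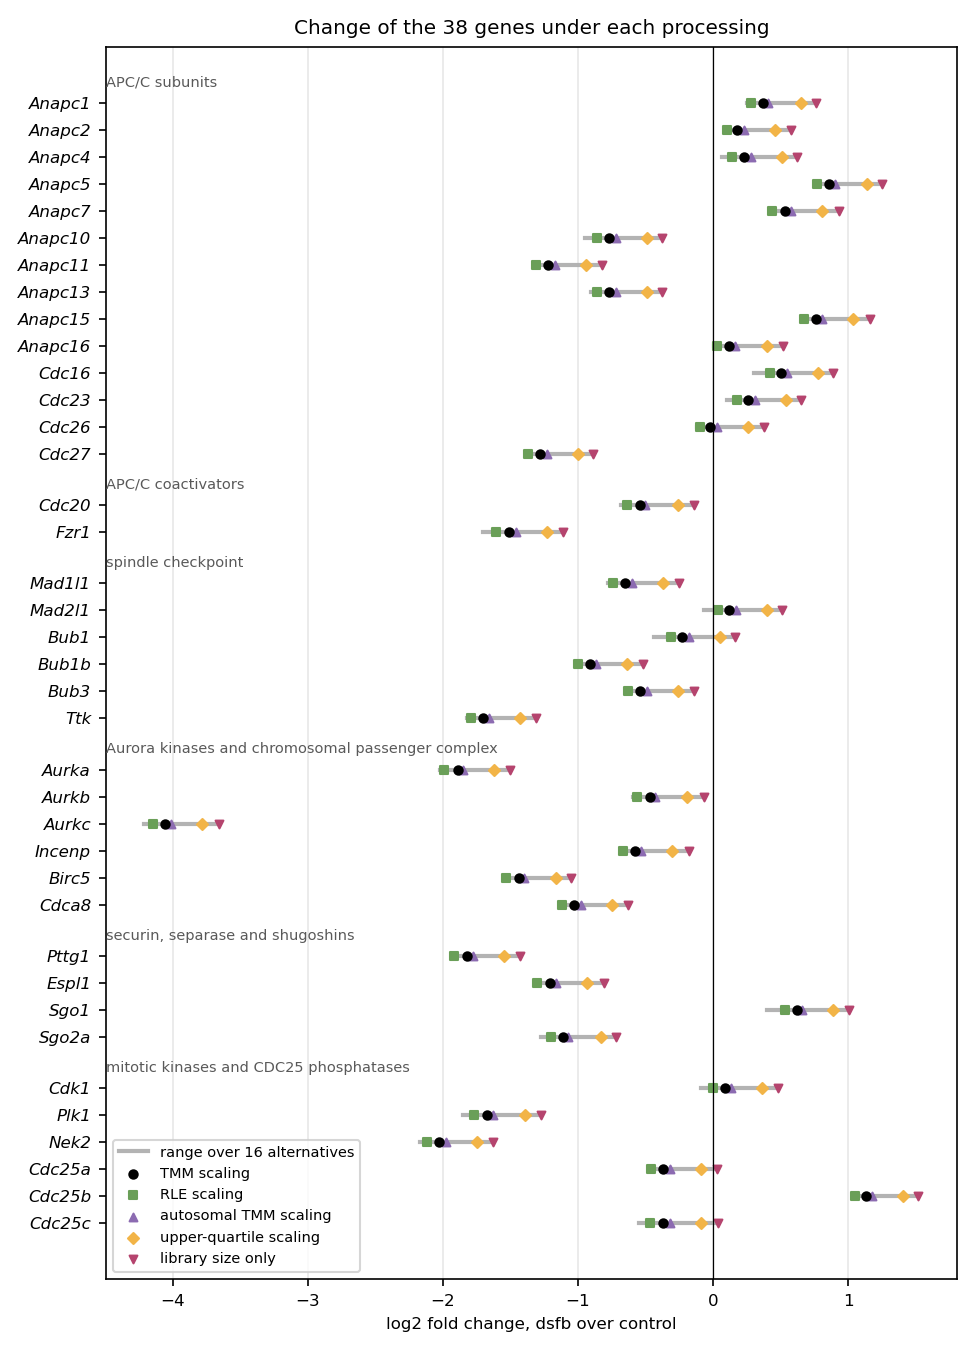
log2 fold change of dsfb over control (horizontal axis) for the 38 genes under TMM scaling (black) and 4 other scalings (coloured marks), with the grey bar spanning TMM and all 16 alternatives. Library size as the only scaling moves every gene to the right, and Cdc26, Mad2l1, Bub1, Cdk1, Cdc25a and Cdc25c have bars that cross 0.

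The partners of these genes, taken from 4 lists of 54 further genes, gave 27 falls and 9 rises, with a median log2 fold change of -0.52. That is 50% lower and 16.7% higher, against 36.2% and 30.7% of all tested genes. The balance hung on the scaling, with 23 falls and 16 rises under upper-quartile and 22 and 18 under library-size-only scaling. Among 10 genes of the E2 enzymes, inhibitors and MAD2 handling 3 fell and 3 rose (5 and 3 by DESeq2). By edgeR that is 30% lower and 30% higher, near the shares of all tested genes. Fbxo43, which encodes the APC/C inhibitor EMI2, fell 11.8-fold from 64.4, 74.7 and 64.1 CPM to 5.59, 5.39 and 6.16 CPM (log2 -3.57, SE 0.13, edgeR adjusted p = 4.94e-07). Its mitotic relative Fbxo5, which encodes EMI1, rose from 9.77, 9.50 and 7.51 CPM to 19.6, 17.7 and 17.4 CPM (log2 1.03, edgeR adjusted p = 0.00125) and was named after its values were seen. The inhibitors therefore moved apart, all dsfb libraries being below the controls for Fbxo43 and above them for Fbxo5. Mad2l2, a MAD2 relative with roles in DNA repair, fell 10.3-fold (log2 -3.37, edgeR adjusted p = 9.79e-07). Of the E2 enzymes that build the ubiquitin chain on APC/C substrates, Ube2s fell 2.05-fold (log2 -1.03, edgeR adjusted p = 0.000131), while Ube2c, named after its values were seen, was at 19.7 to 21.5 CPM in control and 16.9 to 23.1 CPM in dsfb (edgeR adjusted p = 0.822).

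Among 22 kinetochore genes 11 fell and 2 rose. That is 50.0% lower and 9.09% higher, against 36.2% and 30.7% of all tested genes. When 1 library was left out 9 to 15 fell and 1 or 2 rose, with the most falls without control replicate 3. With library size as the only scaling 8 fell and 6 rose. Meikin, which directs the meiosis I kinetochore and helps protect centromeric cohesin, fell 6.01-fold from 33.0, 38.3 and 29.9 CPM to 5.38, 6.71 and 4.75 CPM (edgeR adjusted p = 1.78e-05). Ska1, of the complex that tracks microtubule ends, fell 4.23-fold (edgeR adjusted p = 2.63e-05), and Nuf2, of the NDC80 complex, fell 3.15-fold (edgeR adjusted p = 8.32e-05). Of 9 partners of Aurora and Polo kinases 7 fell and 0 rose by edgeR with TMM, or 6 and 1 with upper-quartile and 6 and 2 with library-size-only scaling. The share lower with TMM was 77.8%, against 36.2% of all tested genes. Haspin, the histone H3 kinase that recruits the passenger complex to centromeres, fell 63.6-fold from 407, 476 and 634 CPM to 8.79, 7.17 and 7.83 CPM (log2 -5.99, SE 0.21, edgeR adjusted p = 4.68e-07). Prc1, a bundler of the central spindle, fell 3.12-fold (edgeR adjusted p = 8.82e-06), as did Kif20a, the kinesin that carries the passenger complex to it, by 2.07-fold (edgeR adjusted p = 2.61e-05). Bora, the activator of AURKA and PLK1, named after its values were seen, fell 2.66-fold (edgeR adjusted p = 0.000117), and Tpx2, the spindle activator of AURKA and likewise picked with its values in view, was at 132 to 168 CPM in control and 147 to 165 CPM in dsfb (edgeR adjusted p = 0.981).

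Among 13 partners and regulators of CDK1 6 fell and 4 rose, or 5 and 6 with library size as the only scaling. With TMM that is 46.2% lower and 30.8% higher, against 36.2% and 30.7% of all tested genes, and the median log2 fold change was -0.01. Ccna1, the A-type cyclin of male meiosis, was at 119.5, 132 and 163 CPM in control and 0.356, 0.115 and 0.378 CPM in dsfb (log2 -8.88, SE 0.27, edgeR adjusted p = 2.77e-07). Its dsfb values rested on 7, 2 and 7 counts, so the size of this fall is uncertain. Ccnb2, a B-type cyclin, fell from 142, 169.8 and 193 CPM to 36.9, 34.8 and 37.6 CPM (edgeR adjusted p = 5.05e-06). Hspa2, the germ-cell chaperone known for CDK1 assembly with cyclin B in spermatocytes, fell 6.29-fold (log2 -2.65, edgeR adjusted p = 8.73e-06). Ccnb3, a cyclin of early meiotic cells that was picked here with its values in view, rose 6.37-fold, from 30.0, 33.6 and 13.4 CPM to 158, 173 and 160 CPM (edgeR adjusted p = 0.00019). Cdk1 itself, whose values are given above, did not pass the test beside these partners.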

How the data were processed

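Polyadenylated RNA of postnatal day 19 testes was extracted with TRIzol and sequenced from NEBNext Ultra libraries, according to the protocols in the labels. The authors deposited raw read counts per gene, 1 column per library, and all 6 libraries were used. STAR 2.6.0 and mm10 are named in the submitters' processing notes, which do not name the counting tool, its annotation or its use of strand (not given in the sources used here). Genes whose exons overlap others on the opposite strand (12 of the 38) are therefore uncertain.

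Identifiers were matched to GENCODE M21, which lacks 260 of 55487. Counts were fitted with edgeR 4.0.16 in R 4.3.3 (filterByExpr, TMM, prior count 0.125, glmQLFTest, group as the only term), with Benjamini-Hochberg adjustment over all 19826 tested genes and a threshold of 0.05. SE is |log2 fold change| / √F. The method was tested on simulated data first. There few genes were changed, as many up as down, so that test cannot judge the scaling of these libraries. All 38 genes are named, and of each partner list the 3 with the smallest p (partners outside this rule are marked in the text); members, lists and this rule were chosen with earlier results of these data known. Alternatives were other scalings and filters, DESeq2 1.42.0, limma-voom (limma 3.58.1), a replicate block and leaving out each library; replicates 1 and 2 alone were added after the data were seen.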

Additional observations from a re-analysis of the deposited data

How the results depend on the processing

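Of the 38 genes 18 kept their direction and their side of the threshold under all 16 alternatives, 11 lost a call in at least 1, 8 gained one and 6 changed direction. The number lower was 14 with library size as the only scaling and 20 to 23 when 1 library was left out. The number higher was 11 with upper-quartile scaling, 14 with library size only, 4 with no filter beyond 1 read and 4 to 7 when 1 library was left out. The median was -0.63 with RLE scaling and with the DESeq2 Wald test (9866 of 38003 genes with no adjusted p), -0.26 with upper-quartile scaling, -0.14 with library size only and -0.62 to -0.48 when 1 library was left out. Over all genes 57.2% of calls were higher with upper-quartile scaling, 60.9% with library size only and 35.5% with no filter, against 45.9%. The sign of Cdc26 turned with upper-quartile scaling (0.26), library size only (0.38) and TMM on autosomes (0.03), and leaving out 1 library gave -0.12 to 0.05, with 0.005 without dsfb replicate 2. That of Mad2l1 and of Cdk1 turned without control replicate 3 (-0.07 and -0.09) and with replicates 1 and 2 alone (-0.05 and -0.06), with ranges of -0.07 to 0.21 and -0.09 to 0.17 when 1 library was left out, and that of Cdk1 also with DESeq2 (-0.00027). Bub1 turned with upper-quartile (0.05) and library-size-only scaling (0.16), as did Cdc25a (0.03) and Cdc25c (0.04) with library size only. The cause was not tested. Replicate numbers are shared between the groups, but same-numbered libraries deviated together only weakly (correlations 0.067, 0.055 and 0.11), although each library correlated best with its own number. With the replicate block 22 of the 38 genes were lower and 7 higher, and over all genes 7203 lower and 6228 higher, against 7176 and 6080. With the longest transcript in place of the union of exons the median control level was 27.4 CPM per kb, against 17.8, and the rank correlation of the 2 orders was 0.96. Among the 38 genes depth limits Aurkc in dsfb most, at 81 counts.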
